A study of Homo sapiens with 6 samples.

Results

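Cardiac organoids at day 30 of differentiation were compared with organoids at day 6, with 1 RNA sequencing library for each day. Both came from H9, an established human embryonic stem cell line, and per the labels each time point stands for a harvest of 10 organoids. The labels name no genetic change, added factor or culture medium for either day, and they do not say whether the organoids of a day were pooled. The series holds 6 libraries in all, with day 0, day 2, day 3 and day 4 beside the pair compared. Of the 58735 genes in the deposited table, 18023 reached an FPKM of at least 1 in either library and were compared. FPKM divides the reads of a gene by its length and by a denominator set for each library.

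In the embryo the first heart muscle cells form from lateral mesoderm under the control of factors such as GATA4, NKX2-5 and the HAND proteins. They start with embryonic and atrial forms of the contractile proteins and later add ventricular and adult forms, while they leave the cell cycle and turn from glucose to fatty acids as fuel. Fibroblasts, smooth muscle, endothelium and epicardium join them and lay down a collagen-rich matrix. The cells next to the heart field become foregut endoderm, which gives rise to the liver among other organs. The epithelium of the intestine also forms from endoderm. Differentiating cultures of cardiac mesoderm can hold such endodermal cells too.

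Differences are given on log2(FPKM + 1), day 30 minus day 6, and on this scale low genes show less than their full change. A gene is said to have risen or fallen when that difference was at least 1 in size, which is a rule of size and not a test. With 1 library per day there is no replicate check, and no p-value is given. Folds are ratios of FPKM with exact 95% intervals that cover counting error only. By this rule 3776 genes rose, which is 21.0% of those compared, and 2761 fell, which is 15.3%. The remaining 11486 genes, 63.7%, did neither. The fold interval excluded 1 for 3386 of the risen genes and 2509 of the fallen genes. Some genes entered through 1 day only, 2798 through day 30 and 2566 through day 6, so a count among the members compared does not describe a whole list. Of the risen genes 3420 had the highest of their 6 levels at day 30, and of the fallen genes 1948 had their lowest level there.

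The split between rises and falls depended on how the libraries were scaled. Recovered reads totalled 14962790 at day 30 and 15418010 at day 6, yet the denominators behind the deposited FPKM stood at 0.826 times the read total at day 30 and 1.12 times at day 6. Rises made up 57.8% of all called genes with the deposited values, 37.4% after scaling by recovered reads, 43.3% as TPM, 45.5% after upper-quartile scaling and 53.8% after median-of-ratios scaling. The median difference over the genes compared was 0.08 as deposited and -0.28 for the same genes after scaling by recovered reads. No gene was called in the opposite direction under any of these scalings. Shares of reads, which do not depend on the denominator, are therefore given beside the FPKM values for some of the lists. In these bulk samples fewer cells of a type and less RNA per cell cannot be told apart.

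Both libraries carry the cell type label of embryonic stem cells, and the marker genes of that state were low at day 30. NANOG had 0 FPKM at day 30 and 0.0751 FPKM at day 6, and POU5F1, the central pluripotency factor, had 0.280 FPKM at day 30 and 3.68 FPKM at day 6. Of 20 pluripotency genes 12 were compared, 11 fell and 0 rose, with a median difference of -2.79. Their share of reads was 0.0112% at day 30 and 0.226% at day 6. By these markers the label names the starting line and not the state at day 30.

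Among protein-coding genes, the 15 greatest rises were led by MT2A (ENSG00000125148, chromosome 16, 56608199 to 56609497, plus strand), a metal-binding metallothionein. It had 1102 FPKM at day 30 and 0.445 FPKM at day 6. Protease inhibitors followed, with the placental and vascular inhibitor TFPI2 at 491 FPKM at day 30 and 2.07 FPKM at day 6 and the mucosal inhibitor SLPI at 216 FPKM at day 30 and 0.388 FPKM at day 6. The fetal plasma protein AFP had 299 FPKM at day 30 and 1.10 FPKM at day 6, a ratio of 272 (212 to 355). AREG, a ligand of the EGF receptor, had 147 FPKM at day 30 and 0 reads at day 6, which makes it at least 1393-fold higher against a floor of 3 reads. CHI3L1, a secreted chitinase-like protein, had 110 FPKM at day 30 and also 0 reads at day 6. The transcription factor CEBPD, the prostaglandin synthase PTGS2, the chemokine CXCL8, MT1E, PAPPA, DLK1, POSTN and SERPINA1 were also among the 15 and are described with their groups. TFPI2, SLPI, AFP, CXCL8, PAPPA, CHI3L1, POSTN and SERPINA1 all encode secreted proteins.

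Among the genes with the greatest fall, LIN28A (ENSG00000131914, chromosome 1, 26410778 to 26429722, plus strand), an RNA-binding protein of stem cells that blocks the maturation of let-7 miRNAs, stood first. It had 0.626 FPKM at day 30 and 275 FPKM at day 6, a fold of 439 lower (309 to 647). The matrix linker HAPLN1, which ties proteoglycans to hyaluronan in the early heart, had 0.524 FPKM at day 30 and 76.9 FPKM at day 6. APELA, a small peptide ligand of the apelin receptor, had 3 reads at day 30 and 2729 reads at day 6. TMEM88, a WNT-inhibiting membrane protein of cardiac progenitors, had 10.1 FPKM at day 30 and 464 FPKM at day 6. The NODAL co-receptor CFC1 had 0.436 FPKM at day 30 and 51.3 FPKM at day 6, and its near-identical copy CFC1B may have shared its reads. FOXH1, a NODAL-responsive transcription factor, had 0.388 FPKM at day 30 and 31.3 FPKM at day 6. The cell-surface proteins PRTG and IGDCC3 had 2.98 and 3.95 FPKM at day 30 and 141 and 105 FPKM at day 6. The others were ALPL, HOXB1, CCKBR, SFRP5, LIX1, CTSV and CST1. Of the 2761 fallen genes, 1140 had the highest of their 6 levels at day 6, and LIN28A had it at day 0.

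**Figure D1:**
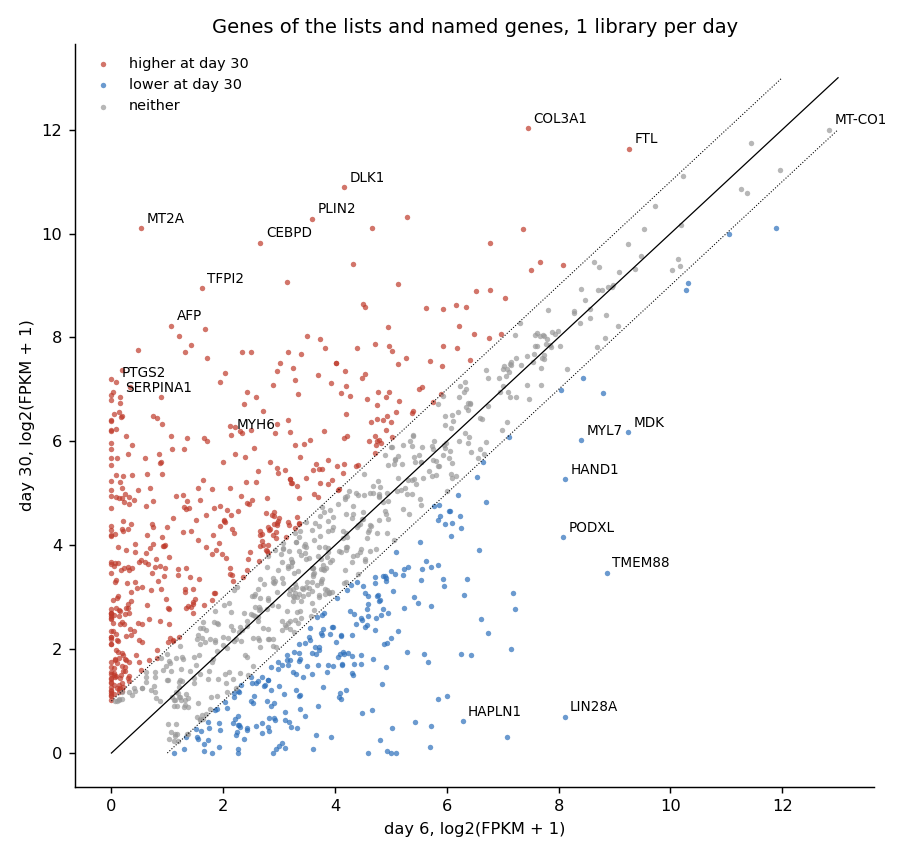
Each point is a gene of the lists or a named gene, with its level at day 30 on the vertical axis and at day 6 on the horizontal axis, both as log2(FPKM + 1). The solid line marks equal levels and the dotted lines a difference of 1, and MT2A, TFPI2, AFP and PTGS2 stand far above them while LIN28A, HAPLN1 and TMEM88 stand far below.

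The miR-302/367 cluster lies in a pluripotency-linked locus on chromosome 4 and is an abundant miRNA cluster of human embryonic stem cells. Its hairpin genes are shown because their sequences carry the shared seed through which these miRNAs choose targets. The mature sequences are from RefSeq on GRCh38.p14, minus strand, 5′ to 3′, with the seed (bases 2 to 8) in capitals.
hsa-miR-302a-3p: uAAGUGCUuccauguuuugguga
hsa-miR-302b-3p: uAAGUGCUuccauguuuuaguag
hsa-miR-302c-3p: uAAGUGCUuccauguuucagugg
hsa-miR-302d-3p: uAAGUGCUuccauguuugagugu
hsa-miR-367-3p: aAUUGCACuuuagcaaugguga
The 4 miR-302 sequences share the seed AAGUGCU, and miR-367 has its own. Poly-A selected libraries read pieces of the primary transcript and not the mature miRNA. MIR302A had 0 reads at day 30 and 37 reads at day 6, and MIR302C had 0 reads at day 30 and 27 reads at day 6. MIR367 had 0 reads at day 30 and 39 reads at day 6, which is at least 9.29-fold lower. MIR302B had 1 read at day 30 and 20 reads at day 6. MIR302D had 3 reads at day 30 and 7 reads at day 6, and its fold interval included 1. At these depths the order of the 5 genes at day 30 was not detectable.

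Heart muscle genes changed in composition rather than as a block. Of 26 sarcomere genes 25 were compared, 13 rose and 5 fell. The median difference was 1.30, or 0.88 after scaling by recovered reads and 0.66 as TPM. Their summed FPKM was nevertheless lower at day 30, at 416 against 601 at day 6, and their share of reads was 0.204% at day 30 and 0.312% at day 6. The atrial light chain MYL7 alone gave 64.0 FPKM of this sum at day 30 and 336 FPKM at day 6. MYL4, the embryonic and atrial essential light chain, had 20.2 FPKM at day 30 and 61.9 FPKM at day 6. The slow skeletal troponin TNNT1, found in the early heart, and TPM1, the main cardiac tropomyosin, also fell, to 7.16 and 38.6 FPKM at day 30 against 23.1 and 92.2 FPKM at day 6.

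The sarcomere genes that rose included several of ventricular muscle. MYH7, the ventricular and slow myosin heavy chain, had 28.9 FPKM at day 30 and 0.133 FPKM at day 6, a ratio of 217 (129 to 398). MYH6, the atrial heavy chain, had 69.0 FPKM at day 30 and 3.43 FPKM at day 6. MYBPC3, the cardiac myosin-binding protein, had 17.7 FPKM at day 30 and 0.0405 FPKM at day 6. CSRP3, a Z-disc protein, had 17.0 FPKM at day 30 and 0 reads at day 6. The ventricular light chains MYL3 and MYL2 had 25.0 and 4.10 FPKM at day 30 and 1.53 and 0 FPKM at day 6. ACTN2, the Z-disc actinin, had 18.3 FPKM at day 30 and 5.28 FPKM at day 6. Some core members did not pass the rule, among them TNNT2 with 14.8 FPKM at day 30 and 9.83 FPKM at day 6, and the giant protein TTN with 1.88 FPKM at day 30 and 2.01 FPKM at day 6.

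Within pairs of related genes the balance moved, and these shares do not depend on the scaling of the libraries. MYH6 made up 70.5% of the summed FPKM of MYH6 and MYH7 at day 30 and 96.3% at day 6. MYL7 made up 94.0% of MYL7 and MYL2 at day 30 and 100% at day 6. MYL4 made up 44.7% of MYL4 and MYL3 at day 30 and 97.6% at day 6. ACTA1, the skeletal actin, was 11.5% of ACTA1 and ACTC1 at day 30 and 0.837% at day 6, where it had only 3 reads. At day 0 ACTA1 was 89.9% of that pair, with 32.2 FPKM against 4.60 FPKM at day 30. The adult troponin TNNI3 was the minor form beside the fetal TNNI1 on both days, at 13.5% of the pair at day 30 and 9.33% at day 6. At day 4 TNNI3 was 81.4% of the pair, with 4.70 FPKM. TNNI3 had only 27 reads at day 30 and 56 reads at day 6. Both genes were lower at day 30, TNNI3 at 1.07 against 1.59 FPKM and TNNI1 at 6.88 against 15.5 FPKM. MYH6 and MYH7 are similar in sequence, so reads may have been split or lost between them. MYL3 was the 1 ventricular form in these pairs that stood above its atrial partner at day 30.

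Calcium and channel genes gave a mixed picture. Of 20 such genes 16 were compared, 5 rose and 2 fell, with a median difference of 0.47 that was 0.03 after scaling by recovered reads. Over all genes compared 21.0% rose and 15.3% fell. PLN, the inhibitor of the calcium pump of the sarcoplasmic reticulum, had 60.1 FPKM at day 30 and 0.289 FPKM at day 6, a ratio of 208 (113 to 434). PLN is also a gene of smooth muscle. The calcium release channel RYR2 rose as well, with 3.71 FPKM at day 30 and 1.32 FPKM at day 6, but its difference was 1.02 and 0.71 after scaling by recovered reads, and it lost its call under 4 settings in all. The pump ATP2A2 had 36.5 FPKM at day 30 and 26.3 FPKM at day 6 and did not pass the rule. HCN4, the pacemaker channel of the early heart tube and sinus node, fell to 1.46 FPKM at day 30 against 6.97 FPKM at day 6. The gap junction protein GJA1 had 225 FPKM at day 30 and 412 FPKM at day 6 and did not pass the rule.

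Of 13 markers of atrial or ventricular muscle 12 were compared, and 9 rose while 2 fell. The 2 that fell, MYL7 and MYL4, are atrial, while the risers held genes of both chambers. The summed FPKM of the list was lower at day 30, at 263 against 410 at day 6. Its share of reads was 0.0646% at day 30 and 0.0701% at day 6. The atrial factors NR2F1 and NR2F2 had 33.3 and 37.1 FPKM at day 30 and 0.134 and 2.13 FPKM at day 6, although mesenchymal cells use both factors too. IRX4, a ventricular factor, had 1.84 FPKM at day 30 and 0.123 FPKM at day 6. The natriuretic peptide NPPB had 28.3 FPKM at day 30 and 2.00 FPKM at day 6, and NPPA had 11.9 FPKM at day 30 and 0.413 FPKM at day 6. Of 18 cardiac transcription factors, by contrast, 1 rose and 4 fell. GATA4 had 60.1 FPKM at day 30 and 60.5 FPKM at day 6, and NKX2-5 had 8.12 FPKM at day 30 and 8.84 FPKM at day 6. HAND2 rose, with 95.4 FPKM at day 30 and 41.0 FPKM at day 6, while HAND1 fell to 37.7 FPKM at day 30 against 277 FPKM at day 6. ISL1, a factor of second heart field progenitors, fell to 1.24 FPKM at day 30 against 16.0 FPKM at day 6. IRX3 and MYOCD were the other factors that fell. HAND2 did not pass the rule after scaling by recovered reads, as TPM or after upper-quartile scaling.

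Genes of fibroblasts and mural cells rose for the most part. Of 20 fibroblast genes 18 were compared, 10 rose and 0 fell, with a median difference of 1.72, and the list held 3.93% of reads at day 30, against 0.921% at day 6. POSTN, a matrix protein of activated fibroblasts and heart valves, had 132 FPKM at day 30 and 0.254 FPKM at day 6, a ratio of 519 (349 to 811). The proteoglycan DCN had 39.7 FPKM at day 30 and 0.0630 FPKM at day 6. The receptor DDR2 and the chemokine CXCL12 rose too, with 36.1 and 47.8 FPKM at day 30 and 4.32 and 2.98 FPKM at day 6. The general mesenchymal gene VIM did not pass the rule, at 122 FPKM at day 30 and 136 FPKM at day 6. PDGFRA, another fibroblast receptor, had 59.1 FPKM at day 30 and 40.6 FPKM at day 6.

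Of 18 smooth muscle and pericyte genes 17 were compared, 12 rose and 1 fell, with a median difference of 1.67. DES, the muscle intermediate filament protein, had 86.6 FPKM at day 30 and 0.751 FPKM at day 6, and it is shared with heart muscle. PDGFRB, a receptor of pericytes and fibroblasts, had 182 FPKM at day 30 and 15.2 FPKM at day 6. The smooth muscle actin ACTA2 had 37.8 FPKM at day 30 and 8.11 FPKM at day 6, and its partner TAGLN had 27.2 FPKM at day 30 and 4.36 FPKM at day 6. SMTN, a smooth muscle cytoskeletal protein, had 57.4 FPKM at day 30 and 4.89 FPKM at day 6. MYH11, the myosin that defines mature smooth muscle, stayed under the minimum in both libraries, at 0.216 FPKM at day 30 and 0.115 FPKM at day 6. RGS5, a pericyte gene, went the other way and fell to 14.0 FPKM at day 30 against 94.2 FPKM at day 6.

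Endothelial genes did not rise as a list. Of 18 genes 14 were compared, 2 rose and 6 fell, with a median difference of -0.45. The junction protein CDH5, which defines endothelium, fell to 0.319 FPKM at day 30 against 3.76 FPKM at day 6, and VWF fell to 0.491 FPKM at day 30 against 3.50 FPKM at day 6. SOX17, shared by arterial endothelium and endoderm, fell to 2.38 FPKM at day 30 against 49.8 FPKM at day 6. PECAM1 had 1.0 FPKM at day 30 and 0.835 FPKM at day 6. The TGF-beta co-receptor ENG rose, with 32.8 FPKM at day 30 and 2.48 FPKM at day 6, and it is also present on mesenchymal cells. FLT1, a VEGF receptor, had 13.4 FPKM at day 30 and 6.00 FPKM at day 6, and it lost its call under each of the 4 other scalings. Among 10 endocardial genes NPR3, a clearance receptor for natriuretic peptides, was the 1 that rose, with 28.1 FPKM at day 30 and 0.668 FPKM at day 6.

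Of 16 epicardial genes 14 were compared, 4 rose and 2 fell. These counts are not far from the shares over all genes compared, 21.0% for rises and 15.3% for falls. WT1, the zinc finger factor of epicardium and kidney, had 14.8 FPKM at day 30 and 0.90 FPKM at day 6. The retinoid enzyme ALDH1A1 and the keratin KRT7 rose with it, with 4.69 and 12.1 FPKM at day 30 and 0.386 and 0.438 FPKM at day 6. TBX18 and TCF21, 2 further epicardial factors, had 1.31 and 3.68 FPKM at day 30 and 0.628 and 2.99 FPKM at day 6 and did not pass the rule. PODXL, a surface sialomucin of stem cells and epithelia, fell to 16.9 FPKM at day 30 against 270 FPKM at day 6. The summed FPKM of the list was 401 at day 30 and 879 at day 6, of which KRT19 gave 299 FPKM at day 30 and 532 FPKM at day 6.

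**Figure D2:**
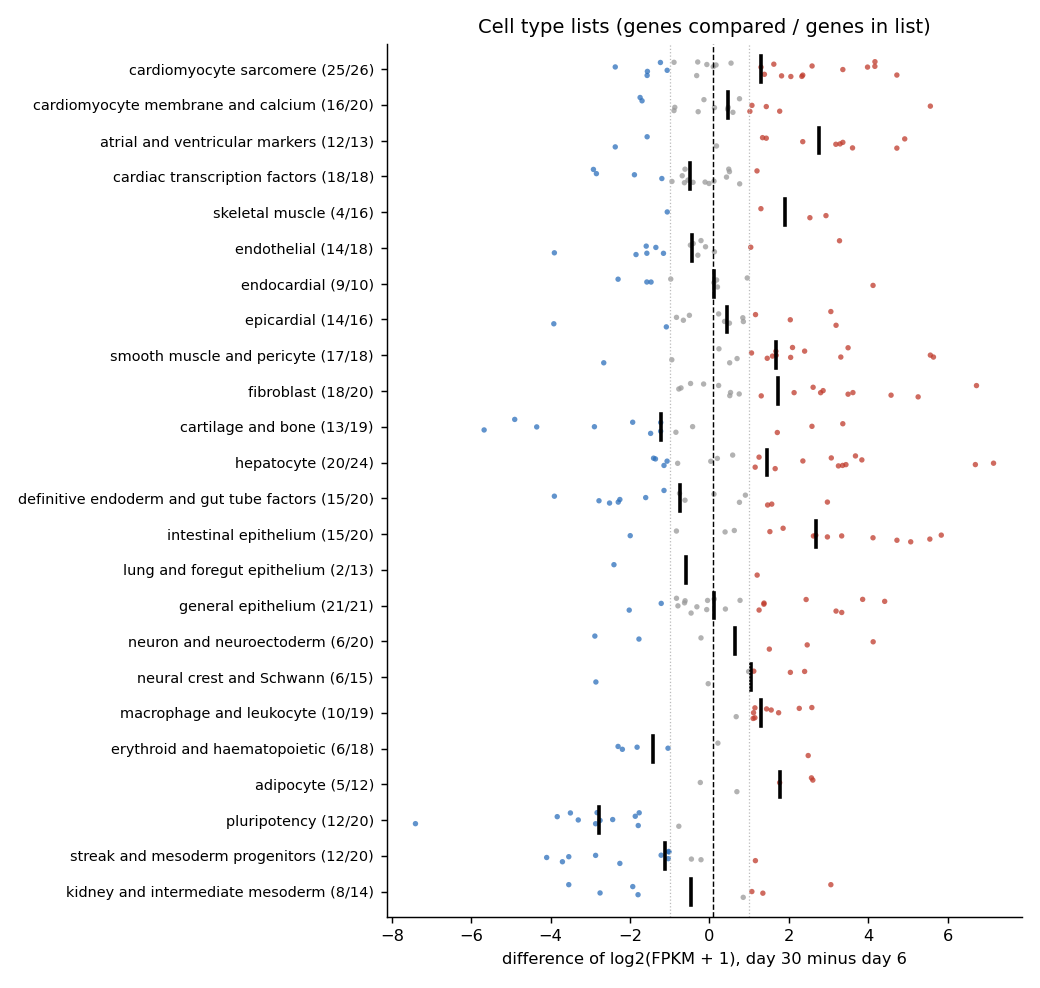
Rows are cell type gene lists, with genes compared over genes in the list, and each point is the difference in log2(FPKM + 1), day 30 minus day 6, for 1 gene (red higher, blue lower, grey neither). Black bars mark list medians, the dashed line the median of 0.08 over all genes compared and the dotted lines the rule of 1, and fibroblast, smooth muscle and intestinal genes lie mostly to the right while pluripotency genes lie to the left.

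AFP and SERPINA1, both among the 15 greatest rises, belong to the hepatocyte list. Of 24 hepatocyte genes 20 were compared, 12 rose and 4 fell, with a median difference of 1.45. SERPINA1, the plasma inhibitor of neutrophil elastase, had 114 FPKM at day 30 and 0.106 FPKM at day 6, a ratio of 1074 (565 to 2349). ALB, the adult plasma protein, had 14.6 FPKM at day 30 and 0.0856 FPKM at day 6. AFP, its fetal counterpart, made up 95.4% of the summed FPKM of AFP and ALB at day 30 and 92.8% at day 6. The fibrinogen chains FGA and FGG rose, with 22.6 and 14.3 FPKM at day 30 and 6.49 and 0.611 FPKM at day 6. The apolipoproteins APOA1 and APOB fell instead, to 125 and 3.54 FPKM at day 30 against 264 and 10.7 FPKM at day 6, although APOA1 lost its call once the median of genes of like length was subtracted. HNF4A, the main hepatocyte factor, fell to 4.33 FPKM at day 30 against 10.8 FPKM at day 6, and the liver enzymes CYP3A7 and CYP2E1 stayed under the minimum on both days.

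Intestinal genes rose as well. Of 20 genes 15 were compared, 11 rose and 1 fell, with a median difference of 2.68. Only 6 of them reached an FPKM of 1 at day 6. The others entered through day 30 alone and could not fall by the rule. With no minimum the list median was 1.69. CDH17, the intestinal cadherin, had 46.0 FPKM at day 30 and 0 reads at day 6, at least 1033-fold higher. The mucin MUC13 and the keratin KRT20 of differentiated gut cells had 32.6 and 25.4 FPKM at day 30 and no reads at day 6. APOA4, an apolipoprotein of the small intestine, had 67.6 FPKM at day 30 and 0.196 FPKM at day 6. CDX2, the factor that sets intestinal identity, had 18.0 FPKM at day 30 and 1.42 FPKM at day 6, and CDX1 had 5.76 FPKM at day 30 and 0.0987 FPKM at day 6. LGR5, a gene of intestinal stem cells, was the 1 that fell, to 2.25 FPKM at day 30 against 12 FPKM at day 6. The goblet mucin MUC2 and the brush border enzyme SI stayed under the minimum on both days.

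Earlier endoderm factors moved the other way. Of 20 definitive endoderm and gut tube factors 15 were compared, 3 rose and 7 fell. FOXA2, an early endoderm factor, fell to 4.10 FPKM at day 30 against 34.1 FPKM at day 6. HHEX, a factor of the liver bud, fell to 2.18 FPKM at day 30 against 14.6 FPKM at day 6. CDX2, PROX1 and ONECUT2 were the ones that rose. General epithelial genes showed no common shift, with 8 of 21 higher, 2 lower and a median difference of 0.12, which was -0.14 after scaling by recovered reads. EPCAM, present on most epithelia, had 89.7 FPKM at day 30 and 67.6 FPKM at day 6, while the claudin CLDN4 rose to 94.5 FPKM at day 30 against 5.57 FPKM at day 6. The epithelial transcription factor ELF3 had 33.4 FPKM at day 30 and 0.611 FPKM at day 6.

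Lists of other lineages changed to different extents. Of 19 macrophage and leukocyte genes 10 were compared, and 9 rose, but their summed FPKM was 25.4 at day 30 and 2.67 at day 6. No gene of this list reached an FPKM of 1 at day 6, so none could fall by the rule. CD14, a receptor for bacterial lipopolysaccharide, had 4.98 FPKM at day 30 and 0 reads at day 6, and the growth factor receptor CSF1R had 2.50 FPKM at day 30 and 0.0449 FPKM at day 6. The pan-leukocyte gene PTPRC had 0.0618 FPKM at day 30 and 0 at day 6, and CD68 had 0 reads at day 30. Reads of overlapping genes cannot be told apart here, so such a low count need not mean that CD68 was silent. Of 18 erythroid and blood genes 6 were compared and 4 fell, with KLF1 at 0.0502 FPKM at day 30 and 3.81 FPKM at day 6, and HBB had 0 reads on both days. Of 20 neuronal genes 6 were compared, 3 rose and 2 fell, with a median difference of 0.65 that was -0.58 as TPM. STMN2, a tubulin-binding protein of neurons, rose to 25.8 FPKM at day 30 against 0.539 FPKM at day 6. TUBB3 stayed under the minimum, with the same limit as CD68. Of 19 cartilage and bone genes 13 were compared, 3 rose and 8 fell, with COL2A1 at 6.09 FPKM at day 30 and 51.8 FPKM at day 6, but the chondrogenic factor SOX9 rose to 19.4 FPKM at day 30 against 0.985 FPKM at day 6. The summed FPKM of this list was 69.0 at day 30 and 323 at day 6. Of 12 early mesoderm genes compared 9 fell and 1 rose, among them the apelin receptor APLNR, with 7.49 FPKM at day 30 and 145 FPKM at day 6.

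Extracellular matrix genes as a theme held 10.2% of reads at day 30, against 4.72% at day 6, and all collagen genes together held 5.56% of day 30 reads, against 1.71% of day 6 reads. Of 11 fibrillar collagens, the chains of the tensile fibres, 10 were compared, 7 rose and 1 fell. COL3A1 (ENSG00000168542, chromosome 2, 188974320 to 189012746, plus strand) is the chain of thin collagen fibres in vessels and young scars. It had 4173 FPKM at day 30 and 174 FPKM at day 6, a ratio of 24.0 (23.7 to 24.3). It was the gene with the largest read share at day 30, at 2.35% of all reads. COL1A2 had 479 FPKM at day 30 and 108 FPKM at day 6, and COL5A2 had 377 FPKM at day 30 and 48.7 FPKM at day 6. COL1A1 had 668 FPKM at day 30 and 270 FPKM at day 6, and it lost its call after scaling by recovered reads. The cartilage chain COL2A1 was the 1 that fell.

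Other collagens and the basement membrane, the sheet under epithelia and around muscle cells, changed in kind. The beaded-filament chain COL6A3 had 210.2 FPKM at day 30 and 7.96 FPKM at day 6. COL15A1, which lies around heart muscle and vessels, had 50.1 FPKM at day 30 and 0.513 FPKM at day 6. Of 23 basement membrane genes 21 were compared, 11 rose and 2 fell, while their share of reads was 1.43% at day 30 and 1.35% at day 6. The laminin chain LAMA1 of the early embryo fell to 9.14 FPKM at day 30 against 81.1 FPKM at day 6. The epithelial laminin chain LAMB3 rose, with 29.5 FPKM at day 30 and 0.247 FPKM at day 6. LAMA2, the chain of muscle basement membrane, rose as well, with 7.63 FPKM at day 30 and 0.268 FPKM at day 6.

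Small leucine-rich proteoglycans, which bind collagen and set fibre width, were compared in 7 of 16 cases and 5 rose. FMOD had 381 FPKM at day 30 and 22.2 FPKM at day 6, BGN had 251 FPKM at day 30 and 12.3 FPKM at day 6, and LUM had 373 FPKM at day 30 and 60.1 FPKM at day 6. Of 32 elastic fibre and matricellular genes 30 were compared, 18 rose and 3 fell, with a median difference of 1.82. THBS1, a matrix protein that activates latent TGF-beta, had 284 FPKM at day 30 and 2.19 FPKM at day 6, a ratio of 130 (117 to 145). THBS2 had 93.1 FPKM at day 30 and 0.0992 FPKM at day 6. TGFBI, a TGF-beta-induced adhesion protein, had 401 FPKM at day 30 and 21.7 FPKM at day 6. The fibrillins exchanged places, as FBN1 rose to 53.3 FPKM at day 30 against 3.65 FPKM at day 6 while the fetal FBN2 and FBN3 fell to 7.06 and 2.17 FPKM at day 30 against 41.8 and 29.1 FPKM at day 6. FN1 had 704 FPKM at day 30 and 396 FPKM at day 6 and did not pass the rule.

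Of 20 collagen-processing genes 11 rose and 1 fell, with a median difference of 1.19 that was 0.76 after scaling by recovered reads. LOX, which cross-links collagen and elastin, had 209 FPKM at day 30 and 1.48 FPKM at day 6, a ratio of 141 (120 to 168). Of 28 proteases and inhibitors 27 were compared, 15 rose and 5 fell. TIMP1, an inhibitor of matrix metalloproteinases, had 1282 FPKM at day 30 and 38.3 FPKM at day 6. MMP1, the interstitial collagenase, had 56.5 FPKM at day 30 and 0 reads at day 6, and the membrane protease MMP14 had 395 FPKM at day 30 and 70.6 FPKM at day 6. The 5 that fell were MMP11, MMP15, ADAMTS12, ADAMTS18 and ADAMTS19. Hyaluronan genes split, as the synthase HAS2 of the cardiac jelly fell to 19.3 FPKM at day 30 against 75 FPKM at day 6, and its receptor CD44 rose to 26.9 FPKM at day 30 against 0.243 FPKM at day 6.

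**Figure D3:**
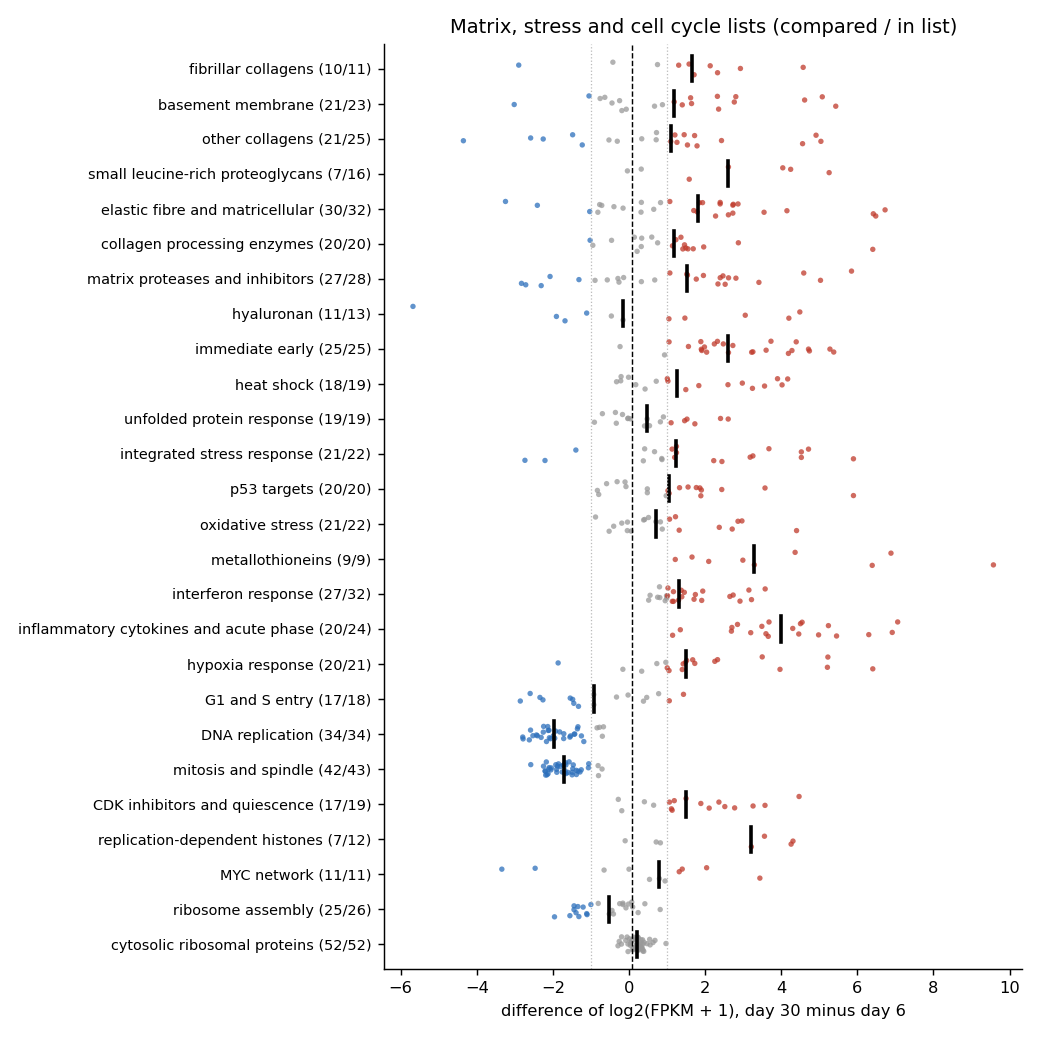
Rows are matrix, stress and cell cycle gene lists, with genes compared over genes in the list, and each point is the difference in log2(FPKM + 1), day 30 minus day 6, for 1 gene (red higher, blue lower, grey neither). Black bars mark list medians, the dashed line the median of 0.08 over all genes compared and the dotted lines the rule of 1, and inflammatory, metallothionein and immediate early genes lie to the right of the line while DNA replication and mitosis genes lie to the left.

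Stress genes had a median difference of 1.52, against 0.08 over all genes compared, and 132 of the 196 compared rose while 4 fell. They held 4.12% of reads at day 30, against 2.14% at day 6. Of 25 immediate early genes, which respond to growth factors, stretch and injury, 23 rose and 0 fell. DUSP1, a phosphatase that ends kinase signals, had 209 FPKM at day 30 and 4.04 FPKM at day 6. JUNB and FOS, parts of the AP-1 factor, had 157 and 40.5 FPKM at day 30 and 3.08 and 0.554 FPKM at day 6. FOS was not highest at day 30 over the course, and had its peak at day 2. IER2 had 14.5 FPKM at day 30 and 17.3 FPKM at day 6, and EGR3 was the other member that did not pass the rule.

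All 20 inflammatory genes that were compared rose, of 24 in the list, with a median difference of 3.99, and its share of reads was 0.272% at day 30 and 0.0100% at day 6. Only 4 of them reached an FPKM of 1 at day 6. The others entered through day 30 alone and could not fall by the rule. The chemokine CXCL8 had 123 FPKM from 3450 reads at day 30 and 1 read at day 6. PTGS2, the inducible prostaglandin synthase, had 140 FPKM at day 30 and 0.0549 FPKM at day 6. The cytokines IL6 and IL1B had 36.8 and 18.7 FPKM at day 30 and no reads at day 6. CXCL1 had 88.3 FPKM at day 30 and 0.134 FPKM at day 6, and CXCL2 had 52.9 FPKM at day 30 and 0.231 FPKM at day 6. NFKBIA and TNFAIP3, the feedback inhibitors of the NF-kappaB pathway, had 181 and 182 FPKM at day 30 and 15.2 and 7.04 FPKM at day 6. The acute phase protein CRP had 0 reads on both days. The macrophage genes given above were low beside these levels, and their part in the rise was not tested.

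NF-kappaB is known to drive many of these genes through kappa B sites close to the transcription start, so the promoters of some of the strongest risers and of NFKBIA are shown. The sequences are the 100 bases before the RefSeq start on GRCh38.p14, in the direction of the gene, with each match to GGNNTTTCC on either strand in capitals. They lie at chr4:73740469-73740568 (CXCL8, plus strand), chr4:73869293-73869392 (CXCL1, plus), chr4:74099196-74099295 (CXCL2, minus), chr7:22727100-22727199 (IL6, plus) and chr14:35404750-35404849 (NFKBIA, minus).
CXCL8: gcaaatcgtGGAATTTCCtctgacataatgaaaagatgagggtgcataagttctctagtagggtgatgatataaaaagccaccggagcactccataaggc
CXCL1: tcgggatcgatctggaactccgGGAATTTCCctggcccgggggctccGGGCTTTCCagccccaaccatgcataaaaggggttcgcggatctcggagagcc
CXCL2: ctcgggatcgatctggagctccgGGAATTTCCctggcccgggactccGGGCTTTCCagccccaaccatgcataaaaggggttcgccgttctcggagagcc
IL6: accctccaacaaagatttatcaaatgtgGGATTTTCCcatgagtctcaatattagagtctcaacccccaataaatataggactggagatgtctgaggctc
NFKBIA: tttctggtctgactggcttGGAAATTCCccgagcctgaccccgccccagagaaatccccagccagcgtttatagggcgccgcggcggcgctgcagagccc
In the 250 bases before the start, 10 of 19 promoters of the inflammatory list (18 of its genes had one) held the motif, against 5.48% of all 35116 promoters. The promoters shown are all among those with the motif. PTGS2, whose rise was greater than that of CXCL8, and IL1B were among the genes without it. Among promoters of all risen protein-coding genes the share was 6.51%, among those of fallen ones 5.39% and among those of all compared 5.85%. Many genes of the list are known targets of NF-kappaB, so its motif count does not test the change between days. A match is a description of the letters and not a measured site.

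All 9 metallothioneins, small proteins that bind zinc and copper and scavenge radicals, were compared and rose, with a median difference of 3.29. None of these genes reached an FPKM of 1 at day 6, so none could fall by the rule. Their summed FPKM was 1348 at day 30 and 0.888 at day 6. MT1E and MT1G had 117 and 82.9 FPKM at day 30 and no reads at day 6, and MT1X had 11 FPKM at day 30 and 0.228 FPKM at day 6. These genes lie side by side on chromosome 16 and are nearly identical, so reads may have been shared among them. The family is induced by metals through the metal response element and by glucocorticoids. The 160 bases before the start are shown for MT2A (chr16:56608424-56608583) and MT1X (chr16:56682310-56682469), both on the plus strand of GRCh38.p14 from RefSeq, with each match to the core TGCNCNC on either strand in capitals.
MT2A: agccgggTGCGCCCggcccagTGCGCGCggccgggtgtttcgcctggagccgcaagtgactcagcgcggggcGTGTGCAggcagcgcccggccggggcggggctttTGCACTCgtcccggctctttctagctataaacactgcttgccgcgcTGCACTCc
MT1X: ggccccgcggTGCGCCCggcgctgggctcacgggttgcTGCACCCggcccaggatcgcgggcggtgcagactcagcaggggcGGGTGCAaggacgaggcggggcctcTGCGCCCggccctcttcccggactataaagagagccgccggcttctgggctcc
The core is short and 49.1% of all promoters hold at least 1 match in 250 bases. At least 4 matches are found in 1.77% of promoters and at least 7 in 0.0854%. MT2A has 7 matches, MT1H has 8 and MT1X has 4 in those 250 bases, and promoters of the other members were not used here.

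The heat shock, integrated stress and unfolded protein lists differed in reach. Of 19 heat shock genes 18 were compared, 11 rose and 0 fell. The inducible chaperones HSPA1A and HSPA1B, which are nearly identical, had 145 and 170 FPKM at day 30 and 8.76 and 8.49 FPKM at day 6. The small heat shock protein CRYAB of muscle had 18.9 FPKM at day 30 and 0.229 FPKM at day 6. The constitutive HSPA8 had 122 FPKM at day 30 and 123 FPKM at day 6. Of 22 genes of the integrated stress response, which follows amino acid shortage and other stress through ATF4, 21 were compared, 13 rose and 3 fell. GDF15, a stress-induced hormone, had 194 FPKM at day 30 and 2.27 FPKM at day 6. The amino acid enzymes of the list went the other way, with PHGDH and PSAT1 at 8.25 and 9.03 FPKM at day 30 and 60.6 and 45.3 FPKM at day 6. Of 19 unfolded protein genes 6 rose and 0 fell, with the chaperone HSPA5 at 268 FPKM at day 30 and 124 FPKM at day 6. The unfolded protein list held 0.464% of reads at day 30, against 0.453% at day 6. HSPA5 lost its call after scaling by recovered reads, as TPM and after upper-quartile scaling.

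Interferon, hypoxia, p53 and oxidative lists moved in the same direction. Of 32 interferon-response genes 27 were compared, 19 rose and 0 fell. B2M, the light chain of class I antigen complexes, had 154 FPKM at day 30 and 12 FPKM at day 6, and IFIT3 had 6.71 FPKM at day 30 and 0.0219 FPKM at day 6. Of 21 hypoxia-response genes 20 were compared, 15 rose and 1 fell. NDRG1, a gene induced by low oxygen, had 141 FPKM at day 30 and 2.82 FPKM at day 6, and VEGFA had 128 FPKM at day 30 and 44.3 FPKM at day 6. The neuronal glucose transporter SLC2A3 was the 1 that fell, to 121 FPKM at day 30 against 442 FPKM at day 6, while SLC2A1 rose to 384 FPKM at day 30 against 79.8 FPKM at day 6. Of 20 p53 targets 11 rose and 0 fell, and CDKN1A had 119 FPKM at day 30 and 9.12 FPKM at day 6. Of 22 oxidative stress genes 21 were compared and 8 rose, with the iron storage chains FTL and FTH1 at 3171 and 1083 FPKM at day 30 and 612 and 165 FPKM at day 6. The mitochondrial enzyme SOD2 had 66.0 FPKM at day 30 and 2.17 FPKM at day 6.

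Of 287 metabolic genes compared, 52 rose and 46 fell, with a median difference of -0.03. These counts are near the shares over all genes compared, 21.0% for rises and 15.3% for falls. Of 58 listed nuclear genes of the respiratory chain 56 were compared and none rose or fell. Their median was -0.12, or -0.53 after scaling by recovered reads. SDHA, also a nuclear gene of the chain, was listed with the citric acid cycle instead and rose. The 13 protein genes of the mitochondrial genome had a median of -0.80 and 5 of them fell, and their share of reads was 1.39% at day 30 and 3.31% at day 6. MT-CO3 had 1103 FPKM at day 30 and 3806 FPKM at day 6, while MT-CYB had 1149.5 FPKM at day 30 and 1169 FPKM at day 6. The listed nuclear genes of the same chain held 0.29% of reads at day 30, against 0.387% at day 6.

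PDK4, the kinase that shuts glucose carbon out of the mitochondrion, had 106 FPKM at day 30 and 0.115 FPKM at day 6, a ratio of 920 (484 to 2013). It was 1 of 2 risers among 27 genes of the citric acid cycle and pyruvate entry, the other being SDHA. Of 32 genes of fatty acid uptake and oxidation 29 were compared, 13 rose and 2 fell. CPT1A, which moves fatty acids into mitochondria, had 15.4 FPKM at day 30 and 0.344 FPKM at day 6, and ACSL1, which activates them, had 46.9 FPKM at day 30 and 0.828 FPKM at day 6. CPT1B, the muscle form, had 2.53 FPKM at day 30 and 1.44 FPKM at day 6. The regulator PPARGC1A rose to 2.00 FPKM at day 30 against 0.149 FPKM at day 6. Of 20 glycolytic genes 19 were compared and 4 rose, namely HK1, HK2, ALDOA and ENO2, with a list median of 0.28 that was -0.15 after scaling by recovered reads. HK1 and ALDOA lost their calls under that scaling, and 4 of 19 is near the 21.0% of rises over all genes compared. HK2 had 111 FPKM at day 30 and 22.8 FPKM at day 6.

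Of 23 genes of fatty acid synthesis and storage 21 were compared, 3 rose and 7 fell. PLIN2, the coat protein of lipid droplets, had 1248 FPKM at day 30 and 11.1 FPKM at day 6, a ratio of 113 (106 to 120), and took 0.524% of all reads at day 30. FASN, the fatty acid synthase, fell to 27.6 FPKM at day 30 against 103 FPKM at day 6, and the elongase ELOVL6 and desaturases FADS1 and FADS2 fell with it. Cholesterol synthesis genes had a median difference of -0.04, with 2 of 24 higher and 3 lower. The cytosolic creatine kinase CKB had 296 FPKM at day 30 and 73.6 FPKM at day 6, and the muscle form CKM had 12.3 FPKM at day 30 and 0.733 FPKM at day 6. CYP1A1, an enzyme induced through the aryl hydrocarbon receptor, had 47.9 FPKM at day 30 and 0.842 FPKM at day 6. The retinoic acid-degrading enzyme CYP26A1 had 0 reads at day 30 and 2.49 FPKM at day 6.

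Genes for the synthesis of building blocks fell more often than they rose. Of 23 genes of serine, folate and one-carbon metabolism 19 were compared, 3 rose and 10 fell, with a median difference of -1.03. TYMS, the thymidylate synthase, fell to 3.80 FPKM at day 30 against 16.2 FPKM at day 6. The mitochondrial folate enzymes MTHFD2 and MTHFD1L rose instead, with 43.4 and 38.4 FPKM at day 30 and 12.7 and 10.1 FPKM at day 6. Of 22 nucleotide synthesis genes 21 were compared, 1 rose and 10 fell. PFAS, an enzyme of purine synthesis, fell to 2.24 FPKM at day 30 against 16.4 FPKM at day 6, and RRM2, the ribonucleotide reductase subunit of dividing cells, fell to 1.32 FPKM at day 30 against 6.19 FPKM at day 6.

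**Figure D4:**
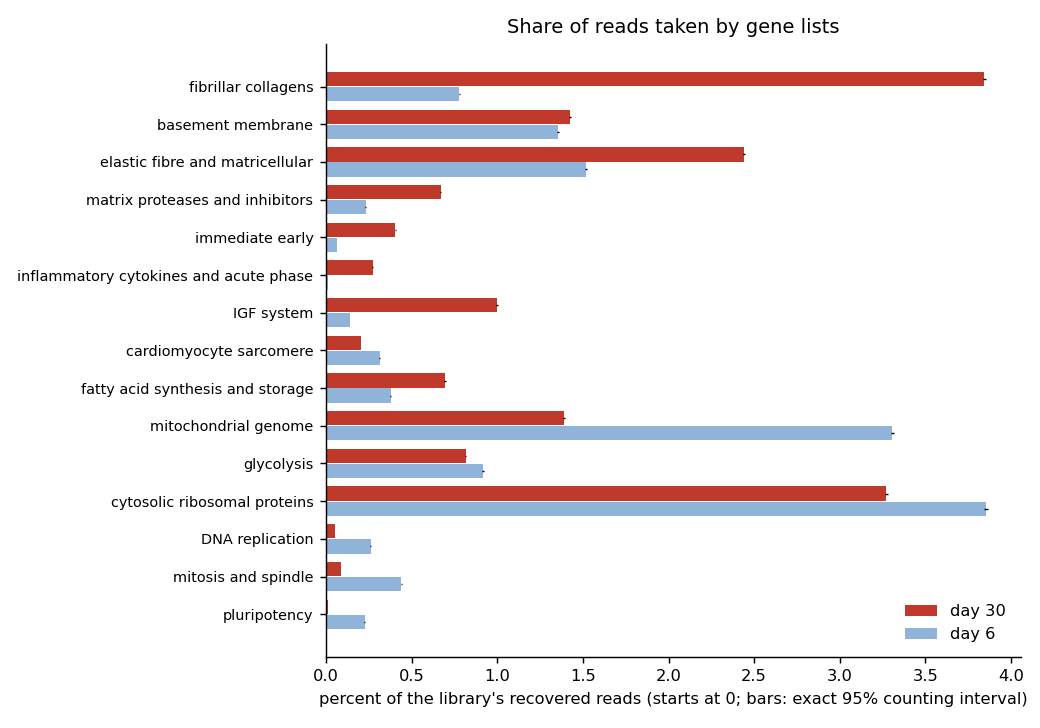
Bars show the percent of the library's recovered reads taken by each gene list at day 30 (red) and day 6 (blue), on an axis that starts at 0 and with exact 95% counting intervals. Fibrillar collagens held 3.84% of reads at day 30, against 0.778% at day 6, while the mitochondrial genome took 1.39% at day 30 and 3.31% at day 6.

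Secreted proteins outside the matrix held 2.46% of reads at day 30, against 1.2% at day 6, and of 143 compared 79 rose and 24 fell. The IGF system, which sets tissue growth, rose in most of its parts, with 10 of 13 compared higher and 1 lower. PAPPA, a protease that frees IGF from its binding proteins, had 261 FPKM at day 30 and 1.31 FPKM at day 6, a ratio of 199 (176 to 226). The binding proteins IGFBP3 and IGFBP4 had 681 and 899 FPKM at day 30 and 19 and 109 FPKM at day 6. STC2, an inhibitor of PAPPA, had 122 FPKM at day 30 and 4.34 FPKM at day 6. The ligand IGF2 had 163 FPKM at day 30 and 17.1 FPKM at day 6, while IGF1 stayed under the minimum. IGFBP6 was the 1 that fell, to 7.28 FPKM at day 30 against 78.1 FPKM at day 6.

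Of 32 genes of plasma carriers and clotting 18 were compared, 10 rose and 1 fell, with a median difference of 1.40 that was 0.98 after scaling by recovered reads. Of 15 apolipoproteins 9 were compared, 3 rose and 4 fell. Of 21 complement genes 12 were compared, 10 rose and 1 fell. Only 4 of the complement genes reached an FPKM of 1 at day 6, and the others could not fall by the rule. The complement median was 2.03, or 0.52 with no minimum. C1R, a protease of the classical pathway, had 89.0 FPKM at day 30 and 0.678 FPKM at day 6, and C3, the central component, had 105 FPKM at day 30 and 4.17 FPKM at day 6. The terminal components C8A and C9 stayed under the minimum on both days. Of 22 serpins and protease inhibitors 18 were compared, 10 rose and 1 fell, and the cystatin CST1 fell to 5.85 FPKM at day 30 against 148 FPKM at day 6. SERPINF1, an inhibitor of vessel growth, had 71.0 FPKM at day 30 and 6.6 FPKM at day 6.

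Growth factors and their antagonists changed in both directions. Of 46 ligand genes 36 were compared, 18 rose and 8 fell. Their summed FPKM was nevertheless lower at day 30, at 713 against 1000 at day 6. The ligand genes held 0.353% of reads at day 30, against 0.361% at day 6. HGF, a mesenchymal factor for epithelia, had 29.6 FPKM at day 30 and 0.0530 FPKM at day 6. BMP10, a ligand of the trabecular heart muscle, had 29.8 FPKM at day 30 and 3.98 FPKM at day 6. INHBA and FGF7 rose too, to 21.1 and 11.2 FPKM at day 30 against 0.153 and 0.0261 FPKM at day 6. BMP4, which induces mesoderm and heart, fell to 4.99 FPKM at day 30 against 96.8 FPKM at day 6, and the heparin-binding factor MDK fell to 71.6 FPKM at day 30 against 603 FPKM at day 6. Among WNT and BMP antagonists 7 rose and 5 fell of 18 compared. The BMP antagonist GREM1 had 30.5 FPKM at day 30 and 0.178 FPKM at day 6, while SFRP5 of the early heart and foregut fell to 1.06 FPKM at day 30 against 56.3 FPKM at day 6. Of 28 peptide hormone genes 19 were compared and 11 rose, among them NPY with 70.1 FPKM at day 30 and 4.02 FPKM at day 6.

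Genes of DNA replication and mitosis fell for the most part. Of 34 DNA replication genes 30 fell and 0 rose, with a median difference of -1.97 and a share of reads of 0.0512% at day 30 against 0.261% at day 6. PCNA, the clamp of the replication fork, fell to 9.19 FPKM at day 30 against 60.3 FPKM at day 6, a fold of 6.56 lower (5.59 to 7.74). The helicase subunits MCM2 and MCM4 fell to 2.28 and 3.29 FPKM at day 30 against 19.2 and 28.5 FPKM at day 6. Of 43 mitosis genes 42 were compared, 39 fell and 0 rose. MKI67, a marker of dividing cells, fell to 5.35 FPKM at day 30 against 27.2 FPKM at day 6, and the kinetochore protein CENPF fell to 2.70 FPKM at day 30 against 21.2 FPKM at day 6. Of the mitosis genes 41 still had an FPKM of at least 1 at day 30, so their transcripts were lower and not lost. Of 18 genes of G1 and entry into S phase 17 were compared, 2 rose and 8 fell, with E2F1 at 2.52 FPKM at day 30 and 24.5 FPKM at day 6. The cyclin CCND1 had 24.7 FPKM at day 30 and 14.0 FPKM at day 6 and did not pass the rule.

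Many promoters of mitotic genes hold a cell cycle homology region, through which the DREAM complex keeps them silent outside division. Promoters of cyclin B2 and 3 further mitotic genes that fell are shown as the 100 bases before the RefSeq start on GRCh38.p14, with each match to its core TTTGAA on either strand in capitals. They lie at chr15:59105046-59105145 (CCNB2, plus strand), chr16:23678789-23678888 (PLK1, plus), chr10:128126424-128126523 (MKI67, minus) and chr1:43358881-43358980 (CDC20, plus).
CCNB2: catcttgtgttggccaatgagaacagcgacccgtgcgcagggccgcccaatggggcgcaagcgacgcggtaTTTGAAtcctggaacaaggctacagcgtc
PLK1: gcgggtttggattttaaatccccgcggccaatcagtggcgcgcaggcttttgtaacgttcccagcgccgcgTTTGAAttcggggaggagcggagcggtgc
MKI67: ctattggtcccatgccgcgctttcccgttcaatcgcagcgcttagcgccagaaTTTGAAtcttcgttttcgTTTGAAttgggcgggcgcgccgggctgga
CDC20: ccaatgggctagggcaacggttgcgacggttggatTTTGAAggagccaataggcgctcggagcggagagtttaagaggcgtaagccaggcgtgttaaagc
CCNB2 had 6.56 FPKM at day 30 and 26.8 FPKM at day 6, PLK1 had 5.83 FPKM at day 30 and 22.8 FPKM at day 6, and CDC20 had 11.4 FPKM at day 30 and 56.1 FPKM at day 6. In the 250 bases before the start, 23 of 46 promoters of the mitosis list held the core, against 13.3% of all promoters, and 34 held CCAAT, against 32.0%. The promoters shown are all among those with the core. Among promoters of fallen protein-coding genes at large the core was found in 10.7%, against 9.04% for all protein-coding genes compared. Of 36 promoters of DNA replication genes, 10 held TTTCCCGC or TTTGGCGC, the letters of E2F sites, against 1.93% of all promoters. Each motif was picked for its list, so these counts do not test the change between days.

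Inhibitors of the cell cycle rose. Of 19 CDK inhibitors and quiescence genes 17 were compared, 13 rose and 0 fell, with a median difference of 1.50. CDKN1C, the imprinted inhibitor of fetal tissues, had 474 FPKM at day 30 and 91.4 FPKM at day 6, and made up 79.9% of the summed FPKM of CDKN1C and CDKN1A at day 30 against 90.9% at day 6. CDKN2B, induced by TGF-beta, had 9.12 FPKM at day 30 and 0.0570 FPKM at day 6. KLF9, a quiescence-linked factor also induced by glucocorticoids, had 28.3 FPKM at day 30 and 0.324 FPKM at day 6. Of 12 histone genes 7 were compared and 4 rose, namely HIST1H1C, HIST1H2AC, HIST1H2BK and HIST2H2BE. HIST1H1C had 63.4 FPKM at day 30 and 2.25 FPKM at day 6, and these 4 are known to give polyadenylated transcripts in cells that do not divide. In poly-A libraries the level of other replication-dependent histones is not measured well.

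MYC family members exchanged places. MYC, which drives growth, rose to 13.3 FPKM at day 30 against 2.49 FPKM at day 6, while MYCN fell to 2.86 FPKM at day 30 against 38.1 FPKM at day 6 and MYCL to 0.560 FPKM at day 30 against 7.62 FPKM at day 6. The antagonist MXD1 had 25.6 FPKM at day 30 and 1.46 FPKM at day 6. Of 26 ribosome assembly genes 25 were compared, 11 fell and 0 rose, with NOP56, a core protein of small nucleolar particles, at 9.27 FPKM at day 30 and 29.1 FPKM at day 6. The 52 ribosomal protein genes neither rose nor fell by the rule. Their median difference was 0.22, or -0.22 after scaling by recovered reads, and they held 3.27% of reads at day 30, against 3.85% at day 6.

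Set among the 6 days, several of these lists reached levels at day 30 that no earlier library showed. Summed FPKM of the fibrillar collagens was 38 at day 0, 85.3 at day 2, 223 at day 3, 227 at day 4, 759 at day 6 and 6007 at day 30. The inflammatory list summed to 24.5 at day 0, 50.2 at day 2, 45.3 at day 3, 64.5 at day 4, 28.5 at day 6 and 1051 at day 30. Immediate early genes summed to 460.3 at day 0, 767 at day 2, 452 at day 3, 436 at day 4, 208 at day 6 and 1815 at day 30. Metallothioneins were already present at day 0, with a sum of 154 FPKM, and had fallen to 0.888 FPKM by day 6 before the sum of 1348 FPKM at day 30. The sarcomere sum was highest at day 6. The mitosis sum was 1586 at day 0, 577 at day 4, 904 at day 6 and 253 at day 30, so day 6 stood above day 4 in this measure.

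**Figure D5:**
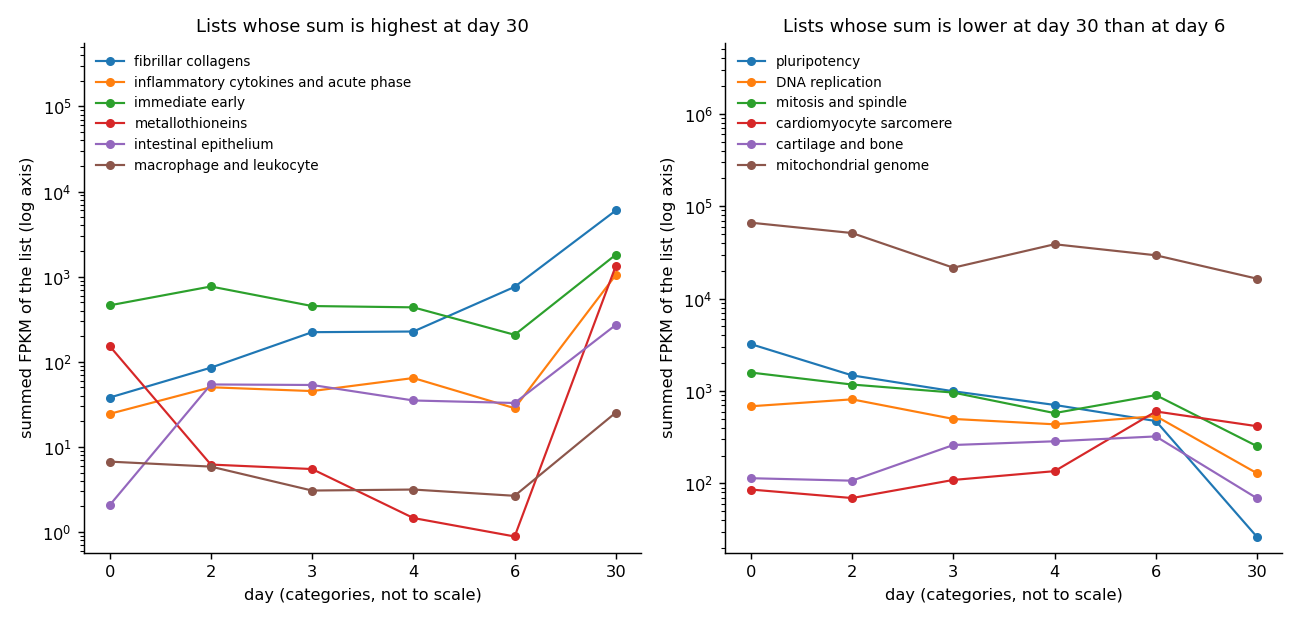
Lines join the summed FPKM of gene lists over the 6 libraries, on a log axis with days as evenly spaced categories and 1 library per point. The left panel holds 6 lists whose sum was highest at day 30, and the right panel 6 lists whose sum was lower at day 30 than at day 6, such as pluripotency with 26.3 at day 30 and 474 at day 6.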

How the data were processed

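RNA was measured in 6 libraries of H9 organoids, of which day 30 and day 6 were compared. Per the labels' protocols, mRNA was purified with poly-T beads and copied from random hexamers. Per the submitters' processing notes, CASAVA, HISAT2 and featureCounts 1.5.0-p3 were used, while the sources used here give no settings, build or use of strand. Reads of antisense, overlapping and near-identical genes therefore cannot be told apart. The authors deposited 1 table of FPKM values for 58735 genes, whose positions equal those of GENCODE release 29 on GRCh38. Multiplied by gene length, the FPKM of a library fell on whole steps (100% of them to within 0.001 read). These steps gave whole reads, whose totals over the 6 libraries ranged between 13500887 and 15526924.

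From these values differences in log2(FPKM + 1), shares of reads and folds were computed with Python 3.11.15, pandas 2.3.3 and scipy 1.17.1. Folds have exact conditional binomial intervals and shares exact Clopper-Pearson intervals at 95%. They cover counting error only, and reads without molecular identifiers are not independent molecules. A fold against 0 reads is a bound from a floor of 3 reads in that library. The procedure was tested on simulated data.

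The 71 gene lists and the genes compared were chosen with earlier results of these data known, and 6 further lists were added after the values were seen. Some genes belong to more than 1 list. Genes were named if they were among the 15 greatest rises or the 15 greatest falls of protein-coding genes, the 15 with the largest read share in each library, in each list up to 4 members with the largest rise, up to 4 with the largest fall and the 2 with the highest level, all members of lists with 5 or fewer compared, and the genes of 10 pairs. ACTA2, ACTN2, BMP10, C8A, C9, CCNB2, CD68, CDX1, CEACAM5, CEACAM6, CPT1B, CRP, CYP2E1, CYP3A7, DDR2, DIO2, DIO3, DUOX2, EGR3, EPCAM, FBN1, FGA, FGG, FKBP5, GABRP, H19, HBB, IGF1, IGF2, IL1B, IL6, IRX4, KLF15, LAMA2, MEG3, MIR302A, MIR302B, MIR302C, MIR302D, MIR367, MKI67, MMP15, MT-CYB, MUC2, MYH11, NANOG, NKX2-5, NPPA, PCAT14, PDGFRA, PER1, PLK1, POU5F1, PPARGC1A, PTPRC, RRM2, RYR2, SERPINF1, SI, TAGLN, TCF21, TNNT2, TSC22D3, TTN, TUBB3, TWIST1 and TYMS were chosen after their values were seen. The 11 promoter motifs were chosen in the same way. Of these, matches to AP-1 (TGANTCA), the cyclic AMP response element (TGACGTCA), the heat shock, amino acid response and glucocorticoid response elements and the CArG box were found in 0 of 24, 2 of 24, 4 of 22, 4 of 30, 0 of 16 and 0 of 21 promoters of their lists. Some genes that the naming rule selects are not reported here.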

Additional observations from a re-analysis of the deposited data

How the results depend on the processing

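No paired analysis was possible because each day had 1 library, and for the same reason no library could be left out. With a minimum FPKM of 5, 2294 genes rose and 1384 fell, and with a threshold of 2 on the difference 1107 rose and 485 fell. Falls numbered 4300 after scaling by recovered reads, 7209 as TPM, where 25626 genes passed the minimum, and 1736 among protein-coding genes only. The other counts, under a pseudocount of 0.1, no minimum, median-of-ratios and upper-quartile scaling, counting intervals that exclude 1, medians of genes of like length subtracted and at least 10 reads in either library (added after the data were seen), stayed within 1.5 times the counts reported. Of 559 genes compared that the naming rule selects, 392 were called, 26 lost the call under at least 1 setting and none of their 4946 values under other settings was called in the opposite direction. Of 51 compared genes named outside that rule 40 were called, and RYR2 and GABRP lost the call. Of 45 lists with a median of at least 1 in size, 25 fell under 1 in some setting. The median of the erythroid and blood list, -1.43 with the minimum of 1, was 0.21 with a minimum FPKM of 5, where fewer members entered. Signs of the endocardial, general epithelial, glycolysis, citric acid cycle and ribosomal protein medians turned after scaling by recovered reads. Low reads limit single genes, as for the MIR302 hairpin genes, whose counts at day 30 were 3 reads or fewer.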

Other observations

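Genes that glucocorticoids induce were collected into a list after the values were seen. Of 12, 11 rose and 0 fell, with a median difference of 3.92. Members were picked with their values known, so this count and median partly reflect the choice. The glucocorticoid response element was found in 0 of 16 promoters of the list, and a glucocorticoid effect was not tested. TSC22D3, the glucocorticoid-induced leucine zipper, had 534 FPKM at day 30 and 7.86 FPKM at day 6, a ratio of 68.0 (62.9 to 73.6). The co-chaperone FKBP5 had 26.1 FPKM at day 30 and 2.82 FPKM at day 6, and the clock gene PER1 had 79.3 FPKM at day 30 and 6.77 FPKM at day 6. CEBPD, a transcription factor of the acute phase, had 903 FPKM at day 30 and 5.34 FPKM at day 6. KLF15 was the 1 that did not pass the rule, at 8.10 FPKM at day 30 and 10.5 FPKM at day 6. MT2A, PDK4, DUSP1 and KLF9 belong to this list too.

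Imprinted genes of fetal growth formed another list of that kind, with 8 of 12 compared higher and 0 lower. DLK1, a secreted NOTCH-like regulator expressed from the paternal copy, had 1900.4 FPKM at day 30 and 16.9 FPKM at day 6, a ratio of 112 (107 to 118), and took 0.833% of all reads at day 30. DIO3, the enzyme that inactivates thyroid hormone and lies in the same imprinted region, had 1106 FPKM at day 30 and 24.3 FPKM at day 6. DIO2, which activates the hormone, fell to 0.238 FPKM at day 30 against 14.3 FPKM at day 6. MEG3, the RNA expressed from the maternal copy of that region, had 0.0383 FPKM at day 30 and 0.0772 FPKM at day 6, and H19 had 0.838 FPKM at day 30 and 0.160 FPKM at day 6.

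Surface and secreted proteins of gut mucosa, also listed after the values were seen, were compared in 13 of 16 cases, and each of the 13 rose. None of them reached an FPKM of 1 at day 6, so all entered through day 30 and none could fall by the rule. CEACAM5 and CEACAM6, adhesion proteins of near-identical sequence in parts, had 61.8 and 72.8 FPKM at day 30 and no reads at day 6. DUOX2, an oxidase of mucosal epithelia, had 36.1 FPKM at day 30 and 0.118 FPKM at day 6. Of 14 mesenchymal factors 8 rose and 0 fell, with TWIST1 at 120.5 FPKM at day 30 and 16.2 FPKM at day 6. Of 12 trophoblast and amnion genes 6 were compared and 4 rose, with the GABA receptor subunit GABRP at 10.5 FPKM at day 30 and 4.37 FPKM at day 6, a call that was lost under 3 of the other scalings. PCAT14, a long noncoding RNA from an endogenous retrovirus, had 0.231 FPKM at day 30 and 134 FPKM at day 6. By gene class, the median difference was -0.51 for 718 lincRNAs and 0.08 for 13155 protein-coding genes. Genes of at most 401 bases, the shortest 10th of those compared, had a median difference of 0.49. Such short genes can pass the minimum on few reads. In a gene of 1000 bases 1 read was 0.081 FPKM at day 30 and 0.058 FPKM at day 6, so fewer reads sufficed at day 30.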
